A study of Mus musculus with 10 samples.

Results

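Interferon-stimulated genes are the genes that cells switch on when interferon binds its receptor. A list of 39 of them was followed in the lineage-depleted marrow of mice of both sexes. The members were chosen by gene symbol, by a rule that uses no measured value, though with earlier results of these data known. All 39 were among the 25178 genes of the count table. One of them, Ddx58, carries its newer symbol Rigi there. Of the 39 members 36 passed the filter on low counts and entered the test, and Ifit3b, Mx1 and Mx2 did not.

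The study asked how blood formation differs between the sexes without injury. It used 5 female and 5 male C57/BL6 mice, which are inbred, at steady state, with no treatment named and no age given. Marrow came from 1 hindlimb of each mouse, cells carrying mature lineage markers were removed with magnetic beads, and total RNA of the remaining hematopoietic stem and progenitor preparation was sequenced in bulk, 1 library per mouse. No interferon treatment is named, and the values are called resting levels here.

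Interferons of type I signal through the receptor chains Ifnar1 and Ifnar2 to the kinases Jak1 and Tyk2. These activate a complex that holds Stat2 and the DNA-binding protein Irf9, which binds a promoter element, the interferon-stimulated response element (ISRE), in front of many interferon-stimulated genes. The products sense viral RNA, block viral entry and replication, or damp the signal again. In bone marrow, type I interferon is known to drive resting stem cells into division, and stem cells are known to hold some interferon-stimulated genes at a raised level without infection.

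The ISRE was searched as GAAA, any 2 bases and GAAA again, or on the other strand TTTC, any 2 bases and TTTC, in windows from 250 bases before to 50 bases after annotated start sites (RefSeq, GRCm38.p6). Windows were found for 29 of the 39 members, and 17 of these (58.6%) held the letters, against 3.99% of 27025 genes with a window. In 13 of the 17 the letters lay before the start site, and in the other 4, Ifih1, Ddx58, Ifitm3 and Eif2ak2, across or after it. The interferon gamma element TTCNNNGAA was in the windows of 8 of 29 members (27.6%), against 9.55% of genes. Upstream stretches are shown for 8 members: Isg15 and Ifit1 as members whose matches lie in tandem or close together, Ifit3 and Ifit3b because they are copies of each other, and Gbp7, Oas1a, Rsad2 and Ifitm2 because they had the smallest p-values between the sexes among members with an upstream match. Each is written 5′ to 3′ on the strand of its gene, with every ISRE match in capitals.
Isg15, chr4:156200855-156200916, minus strand: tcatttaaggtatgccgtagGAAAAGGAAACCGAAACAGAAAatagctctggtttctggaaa
Ifit1, chr19:34640765-34640833, plus strand: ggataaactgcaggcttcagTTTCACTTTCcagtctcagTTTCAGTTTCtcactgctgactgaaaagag
Ifit3, chr19:34583353-34583436, plus strand: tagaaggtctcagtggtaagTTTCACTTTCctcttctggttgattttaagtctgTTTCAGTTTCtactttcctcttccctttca
Ifit3b, chr19:34607749-34607832, plus strand: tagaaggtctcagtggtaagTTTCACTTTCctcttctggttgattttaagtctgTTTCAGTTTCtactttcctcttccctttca
Gbp7, chr3:142530263-142530312, plus strand: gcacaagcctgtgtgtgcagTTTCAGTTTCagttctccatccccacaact
Oas1a, chr5:120907526-120907565, minus strand: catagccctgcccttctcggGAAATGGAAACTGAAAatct
Rsad2, chr12:26456543-26456592, minus strand: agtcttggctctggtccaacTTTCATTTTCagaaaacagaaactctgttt
Ifitm2, chr7:140955978-140956027, minus strand: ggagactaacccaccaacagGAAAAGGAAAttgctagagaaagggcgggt

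The Isg15 stretch holds 3 overlapping matches that begin between 78 and 66 bases before the start site, and the Ifit1 stretch holds 2, at 104 and 85 bases. The stretches of Ifit3 and Ifit3b read the same over all 84 bases. A match is a description of the letters and was not measured as a bound site.

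Libraries held between 20754101 and 24759687 counts. Means are given ± SD over the 5 mice of a sex. Levels are given as CPM, the count scaled to a fixed library total after TMM normalisation, and between genes as CPM per kb of exon. Kit, a receptor of stem and progenitor cells, was at 280 ± 43.3 CPM in females, against 249 ± 59.4 CPM in males (SD, n = 5 each), and mature cells were not absent. The summed level of 10 mature neutrophil markers ran between 260 and 967 CPM in females and between 211 and 8729 CPM in males, with male replicates 1 (8729) and 2 (2698) highest. Males also differed by gene length, with values in male replicate 2 that were lower the longer the gene. Its deviation from the other males had a rank correlation with exon length of -0.505 across 14663 genes. Against averages that include male replicate 2, male replicates 4 and 5 had correlations of 0.49 and 0.409, in the other direction. In bulk RNA, fewer cells of a type and less RNA per cell cannot be told apart.

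At rest, the interferon-stimulated genes ranged from abundant to barely detected. The highest per exon length were Ifitm2 (131 CPM per kb), Ifitm3 (123), Bst2 (60.4) and Ifitm1 (28.7), all of them membrane proteins that hinder viruses from entering or leaving the cell. Next came Cmpk2, Trim25, Isg15, Ifi35 and Oas1a, between 18.2 and 11.4 CPM per kb. The lowest were Oas2 (0.169), Ifit3b (0.108), Mx1 (0.0884) and Mx2 (0.0375). The median of the 36 tested members was 4.76 CPM per kb, beside 4.93 over the 14663 tested genes with a known length, so that 17 of the 36 lay above the median of all. The order of the means of Ifitm2 and Ifitm3 was not the same in both sexes. Ifitm3 was higher in females (114 against 109 CPM per kb for Ifitm2) and Ifitm2 in males (153 against 133 for Ifitm3). Single mice did not all follow it, and male replicate 1 had more Ifitm3 (116 CPM) than Ifitm2 (94.0 CPM). Of the 50-base stretches of Ifitm2 transcripts 48.5% also occur in other genes, so its level is uncertain. The 39 members together made up 982 ± 35.7 CPM in females, against 935 ± 77.6 CPM in males (SD, n = 5 each), with libraries between 930.5 and 1027 CPM in females and between 844 and 1058 CPM in males.

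**Figure D1:**
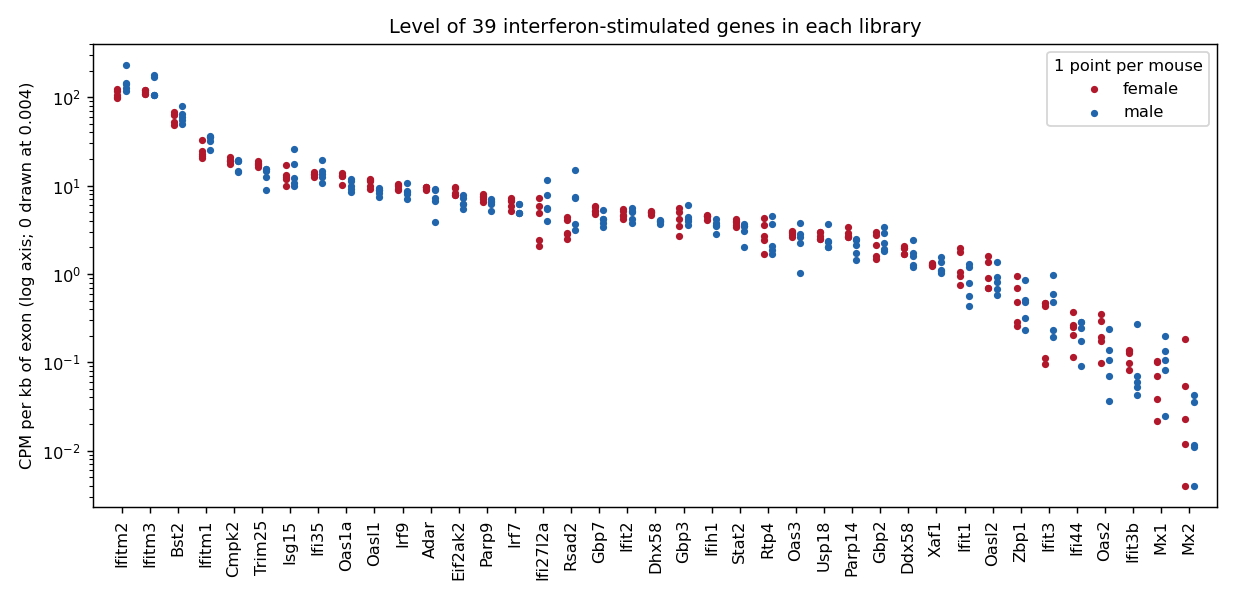
Level of each of the 39 interferon-stimulated genes in CPM per kb of exon (log axis), 1 point per mouse, females (red) left of males (blue), ordered by the mean of the 10 libraries. Ifitm2, Ifitm3, Bst2 and Ifitm1 lead, and Oas2, Ifit3b, Mx1 and Mx2 are lowest; libraries with no count are drawn at 0.004.

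Between the sexes, most members had a slightly higher mean in females, and none passed the test over all genes. The quasi-likelihood test of edgeR called 0 of 36 members at an adjusted p under 0.05, where 0.0545% of the 14674 genes tested were called. At an unadjusted p under 0.05 there were 12 of 36 members (33.3%, against 9.17% of all genes), 9 higher in females, where 3.76% of all genes were, and 3 lower (8.33%, against 5.41%). The 9 were Dhx58, Eif2ak2, Oasl1, Parp14, Ifih1, Gbp7, Trim25, Oas1a and Parp9, and the 3 were Rsad2, Ifitm1 and Ifitm2. Each of these 12 had an edgeR adjusted p of 0.506. The Wald test of DESeq2 called 1 member, Dhx58 (adjusted p = 0.0287), where it called 0.361% of genes, and it too had 12 members at an unadjusted p under 0.05, against 10.9% of genes. Of the 36 members 25 had a positive log2 fold change, female over male (69.4%, against 48.0% of all genes), and the median was 0.17, against -0.01 over all genes. All 5 females lay above all 5 males in 4 members, Dhx58, Eif2ak2, Trim25 and Parp14 (11.1%, against 1.06% of genes), and below all males in 0 (0.865% of genes). Leaving out male replicate 3 gave a median of 0.10, and leaving out male replicate 1 gave 0.28. Without male replicates 1 and 2 together, 16 members were higher at an unadjusted p under 0.05 (3.65% of genes in that fit), 2 were lower (1.94%), and 31 of 36 fold changes were positive (86.1%, against 49.6% of genes).

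Some markers of other cell types differed between the sexes as well. The sum of 8 erythroid markers, all detected, ran between 4157 and 8370 CPM in females and between 10128 and 46651 CPM in males, without overlap. Globin genes made up most of it, with Hba-a1 at 13821 CPM and Hba-a2 at 13165 CPM in male replicate 1. Of the 8 erythroid markers, 6 had negative fold changes, female over male, and 2 had positive ones. The sum of 9 B lineage markers, all detected, ran between 10.5 and 15.3 CPM in females and between 14.3 and 45.1 CPM in males. The sum of 8 megakaryocyte and platelet markers, all detected, ran the other way, between 1404 and 1830 CPM in females and between 1103 and 1324 CPM in males. By DESeq2, which called none of the monocyte markers, adjusted p-values were 0.000112 for the globin gene Hba-a1, 0.00128 for the B cell factor Pax5 and 0.00018 for the platelet receptor gene Gp5, while edgeR called none of the 3. Other genes of the same lists were not called by DESeq2, among them Ebf1 of the B lineage (adjusted p = 0.734) and the platelet gene Pf4 (0.938). The part of these cells in the member values was not tested.

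**Figure D2:**
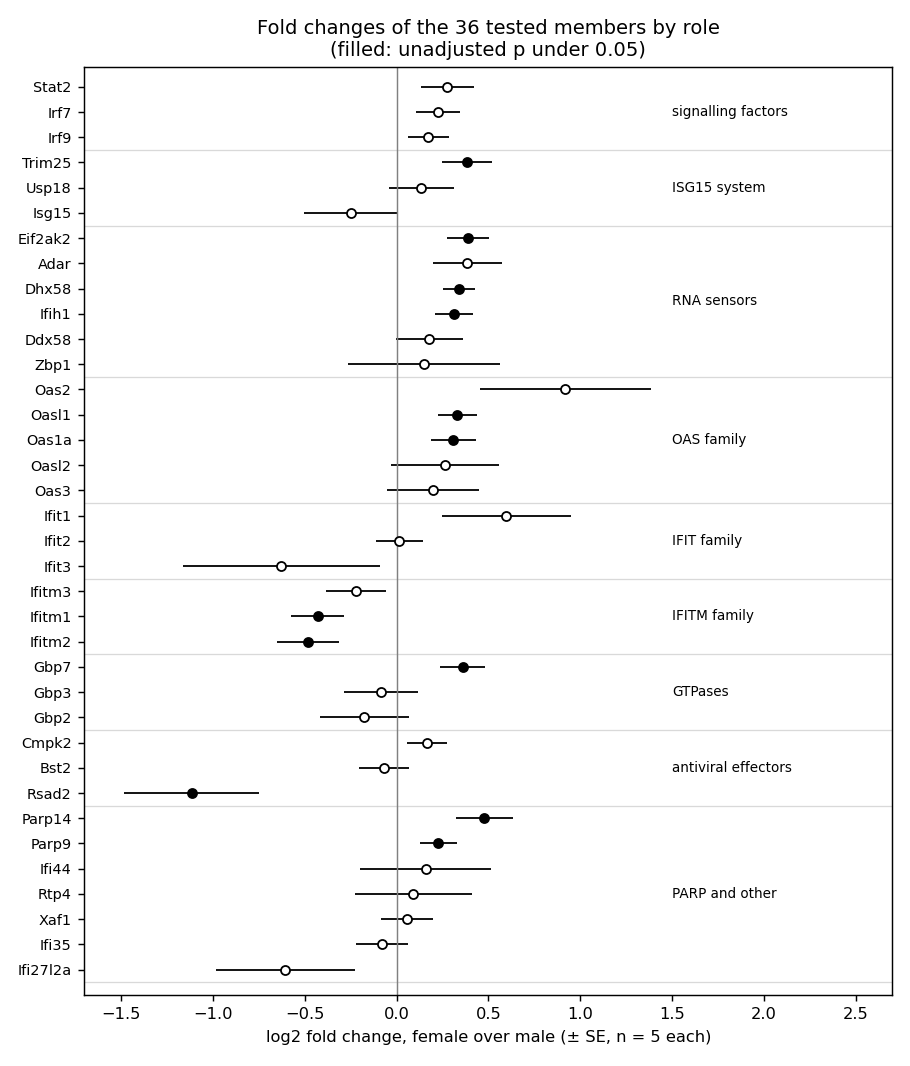
Log2 fold change, female over male, with its SE (n = 5 each) for the 36 tested members, grouped by role; filled points had an unadjusted p under 0.05. Signalling factors, RNA sensors and the OAS family lie right of 0 throughout, the IFITM family lies left of it, and Rsad2 has the lowest value, -1.12.

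The signalling factors all had positive fold changes, none with an unadjusted p under 0.05. Stat2, the subunit of the transcription complex particular to type I and lambda interferon (chromosome 10: 128270559 to 128292849, GRCm38 as for all gene positions here), had 21.5, 24.6, 23.7, 22.8 and 20.2 CPM in the females and 18.3, 12.1, 20.5, 21.7 and 20.4 CPM in the males. The sexes overlapped, and the lowest value was that of male replicate 2. Its log2 fold change was 0.28 (SE 0.15), and 0.16 without male replicate 2. Irf7, the factor that drives interferon alpha production, averaged 24.0 ± 3.07 CPM in females, against 20.5 ± 2.54 CPM in males, and Irf9 averaged 52.2 ± 3.42 CPM in females and 46.3 ± 7.26 CPM in the males.

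In the ISG15 system 1 of 3 members had an unadjusted p under 0.05. Trim25, a ubiquitin and ISG15 ligase that activates the sensor RIG-I (chromosome 11: 88999376 to 89020293), had 99.1, 101, 108, 92.6 and 102 CPM in the females and 72.6, 51.8, 84.6, 87.7 and 89.8 CPM in the males. Every female lay above every male, with male replicate 2 again lowest. The log2 fold change was 0.38 (SE 0.14), 0.27 when male replicate 2 was left out and 0.20 when replicates 1 and 2 both were. Isg15 itself, a ubiquitin-like protein joined to other proteins, had 9.95, 7.39, 8.97, 12.8 and 9.46 CPM in the females and 19.5, 13.3, 7.47, 9.10 and 8.17 CPM in the males. The higher male mean came from replicates 1 and 2, and the log2 fold change was -0.25 with all libraries (SE 0.26), 0.03 without male replicate 1 and 0.23 without both. Usp18, which removes ISG15 and blocks the receptor, averaged 7.63 ± 0.709 CPM in females, against 6.94 ± 1.96 CPM in males.

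The group of RNA sensors holds proteins that act on foreign RNA or DNA in the cell, and also the editing enzyme Adar. All 6 members of the group had positive fold changes (median 0.33), and 3 of 6 had an unadjusted p under 0.05. The test of edgeR called 0 of them and that of DESeq2 called Dhx58. Dhx58, which encodes the RIG-I-like helicase LGP2 (chromosome 11: 100694884 to 100704271), had 17.0, 15.9, 15.2, 16.3 and 16.5 CPM in the females and 13.1, 11.9, 12.6, 13.5 and 12.9 CPM in the males. No female came below 15.2 CPM and no male above 13.5, and the coefficient of variation was 4.27% in females and 4.65% in males. Its log2 fold change was 0.34 (SE 0.09), a 1.26-fold difference, and it lay between 0.31 and 0.36 in all 17 alternative fits.

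Eif2ak2, the kinase PKR that stops translation on double-stranded RNA (chromosome 17: 78852564 to 78882573), had 40.4, 48.7, 40.4, 42.3 and 47.6 CPM in the females and 27.5, 31.5, 31.8, 39.8 and 37.0 CPM in the males. The lowest female exceeded the highest male by less than 1 CPM, and the log2 fold change was 0.39 (SE 0.11). Ifih1, the sensor MDA5 for long double-stranded RNA, had 38.1, 36.5, 37.3, 37.2 and 33.7 CPM in the females and 29.6, 23.4, 28.4, 34.6 and 31.2 CPM in the males. Only female replicate 5 lay below the highest male, and the log2 fold change was 0.31 (SE 0.10). Adar, the enzyme that edits double-stranded RNA and keeps cellular RNA from being sensed, had a log2 fold change of 0.38 (SE 0.19) that was 0.23 without male replicate 2. Its females lay between 73.0 and 78.1 CPM, and its males were at 54.6, 31.1, 58.3, 73.4 and 73.2 CPM, so male replicates 4 and 5 were at the female level. Exons of Chrnb2 overlap 16.8% of the exon length of Adar. Ddx58, the sensor RIG-I, averaged 13.2 ± 1.27 CPM in females, against 11.6 ± 3.49 CPM in males. Zbp1, a sensor of left-handed nucleic acid that can trigger cell death, averaged 1.88 ± 1.01 CPM in females, against 1.70 ± 0.848 CPM in males.

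**Figure D3:**
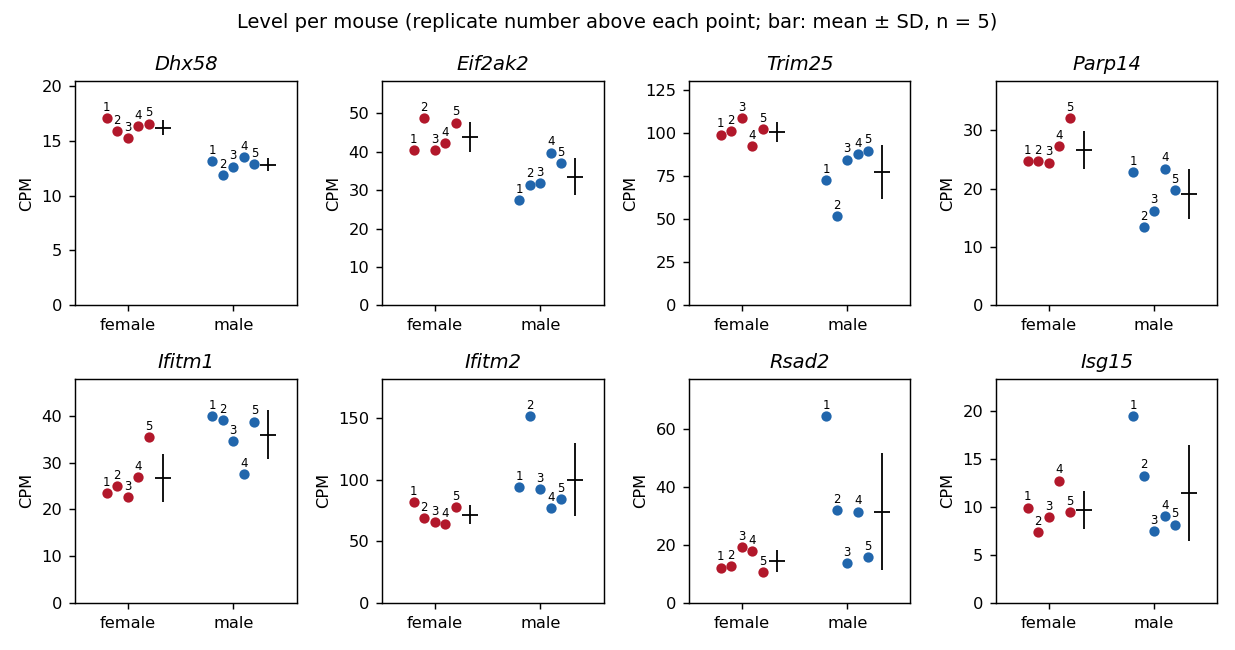
CPM in each mouse for 8 members, females left of males, with the replicate number above each point and the mean ± SD (n = 5) beside it. Dhx58, Eif2ak2, Trim25 and Parp14 do not overlap between the sexes, while Ifitm1, Ifitm2, Rsad2 and Isg15 do, and male replicate 1 is highest in Ifitm1, Rsad2 and Isg15.

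The oligoadenylate synthetase (OAS) family, whose enzymes sense double-stranded RNA and activate RNase L, also had 5 of 5 positive fold changes (median 0.31). Oasl1, a relative without synthetase activity that in mice limits the translation of Irf7, had 30.1, 23.7, 31.4, 29.2 and 25.8 CPM in the females and 21.4, 19.2, 24.4, 23.3 and 23.0 CPM in the males. Only female replicate 2 lay among the males, and the log2 fold change was 0.33 (SE 0.11). Oas1a had 24.1, 19.2, 25.1, 24.4 and 26.4 CPM in the females and 22.7, 21.4, 17.4, 15.9 and 18.9 CPM in the males, a log2 fold change of 0.31 (SE 0.12). The sexes overlapped through female replicate 2 and male replicates 1 and 2. Of the 50-base stretches of Oas1a transcripts 57.6% also occur in other genes, chiefly Oas1g, so its reads could be split between them. Oas2 had the largest positive fold change of all members, 0.92 (SE 0.46), from only 117 counts in the females and 59 in the males. Oas3 was at 20.3 ± 1.23 CPM in females, against 17.7 ± 7.08 CPM in males, and its log2 fold change of 0.20 was 0.01 without male replicate 2. Oasl2 averaged 6.72 ± 2.67 CPM in females, against 5.59 ± 1.99 CPM in males.

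The IFIT family, whose members bind foreign RNA, gave no member with an unadjusted p under 0.05. Ifit1, which binds viral RNA caps, had 1.99, 2.52, 2.82, 5.18 and 4.69 CPM in the females and 3.44, 3.22, 1.15, 1.48 and 2.11 CPM in the males. Female replicates 4 and 5 and male replicates 1 and 2 were the high mice of each sex. The log2 fold change was 0.60 (SE 0.35). Ifit2 averaged 18.8 ± 2.01 CPM in females, against 18.6 ± 2.90 CPM in males. Ifit3 had 65 counts in all females together and 96 in all males, and Ifit3b had 27 in females and 23 in males. Of the 50-base stretches of Ifit3 transcripts 51.2% occur in other genes, chiefly Ifit3b, and 45.0% the other way, so the 2 genes' counts are uncertain.

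The IFITM family, small proteins that stop viruses from fusing with the membrane, was the only role group with every fold change negative (3 of 3), and 2 of 3 had an unadjusted p under 0.05. Ifitm1 (chromosome 7: 140967221 to 140969825) had 23.5, 24.9, 22.7, 26.9 and 35.5 CPM in the females and 40.0, 39.2, 34.6, 27.5 and 38.8 CPM in the males. Female replicate 5 lay at the male level and male replicate 4 near the other females, and the log2 fold change was -0.43 (SE 0.14). Ifitm2 (chromosome 7: 140954837 to 140955987) had 81.6, 68.5, 65.5, 64.0 and 77.9 CPM in the females and 94.0, 152, 92.4, 77.2 and 84.4 CPM in the males. Male replicate 2 was far above the rest, and the log2 fold change of -0.48 (SE 0.17) was -0.28 without it. Of the exon length of Ifitm2 40.9% overlaps the predicted gene Gm45717, and 48.5% of its 50-base transcript stretches occur in other genes. Ifitm3 had 81.6, 73.2, 76.7, 74.1 and 81.0 CPM in the females and 116, 120, 71.9, 72.2 and 71.0 CPM in the males. Its 2 high values were male replicates 1 and 2, while the other 3 males lay below every female. The log2 fold change was -0.22 (SE 0.16), and 0.11 without male replicates 1 and 2.

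These 3 genes have short exons (655 to 1094 bases). Male replicate 2 was the highest male in Ifitm2 and Ifitm3, and male replicate 1 was the highest in Ifitm1. Without male replicate 2 the log2 fold change was -0.40 in Ifitm1 and -0.09 in Ifitm3. The part of exon length in the IFITM values was not tested. The paralog Ifitm6 had 1.89, 2.44, 7.35, 2.50 and 4.26 CPM in the females and 61.3, 19.2, 10.5, 11.3 and 2.02 CPM in the males. The order of the males was that of the neutrophil marker sum, which was 8729, 2698, 1362, 1363 and 211 CPM in male replicates 1 to 5. In Ifitm1 male replicate 5, with the lowest neutrophil sum, was at 38.8 CPM. The part of neutrophil RNA in the IFITM values was not tested.

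Among the GTPases, Gbp7, a guanylate-binding protein of the kind that attacks microbes inside cells (chromosome 3: 142530342 to 142550149), had 29.2, 33.4, 26.6, 28.8 and 32.5 CPM in the females and 19.2, 23.5, 21.3, 29.5 and 23.7 CPM in the males. Male replicate 4 was the one male within the female range, and the log2 fold change was 0.36 (SE 0.12). The predicted gene Gm43802 overlaps 11.3% of its exon length. Its close relatives did not share that order. Gbp3 averaged 13.7 ± 3.82 CPM in females, against 14.5 ± 3.02 CPM in males, and Gbp2 averaged 5.49 ± 1.66 CPM in females and 6.21 ± 1.73 CPM in the males. Mx1 and Mx2, dynamin-like GTPases that trap viral particles, were near the limit of detection. Mx1 had 30 counts in the 5 females together and 48 in the 5 males, and Mx2 had 23 in the females and 8 in the males. Of the 23 female counts of Mx2 15 were in 1 mouse. C57BL/6 mice are known to carry a defective Mx1 allele, as most inbred strains do.

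Among the antiviral enzymes and restriction factors, Rsad2 stood out. It encodes viperin, which makes a chain-ending nucleotide that stops viral polymerases (chromosome 12: 26442746 to 26456452). It had 12.2, 12.7, 19.3, 17.9 and 10.8 CPM in the females and 64.6, 32.0, 13.7, 31.5 and 15.9 CPM in the males. Male replicates 1, 2 and 4 lay above every female and male replicates 3 and 5 within the female range. The log2 fold change of -1.12 (SE 0.37) was the most negative of all members, and it was -0.68 when male replicate 1 was left out and -0.49 when replicates 1 and 2 both were. Several marker sums were high in the same males. The erythroid sum was 46651, 27113, 11370, 22267 and 10128 CPM in male replicates 1 to 5, and the B lineage sum was 45.1, 27.7, 14.3, 26.3 and 16.7 CPM. The neutrophil sum was highest in male replicate 1 and about the same in replicates 3 (1362) and 4 (1363). The part of these cells in the Rsad2 values was not tested. The neighbouring gene Cmpk2, a nucleotide kinase of mitochondria, averaged 80.3 ± 5.46 CPM in females, against 71.6 ± 10.3 CPM in males. Bst2, the tether that holds budding viruses to the cell, had 47.1, 43.8, 58.3, 56.5 and 60.8 CPM in the females and 59.1, 71.5, 53.9, 44.9 and 50.02 CPM in the males. The sexes overlapped widely, and the log2 fold change was -0.07 (SE 0.14).

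Of the remaining 7 members, 2 poly-ADP-ribose polymerase relatives had an unadjusted p under 0.05. Parp14, which attaches single ADP-ribose units to proteins (chromosome 16: 35832874 to 35871544), had 24.6, 24.7, 24.4, 27.3 and 32.0 CPM in the females and 22.8, 13.3, 16.2, 23.4 and 19.7 CPM in the males. Every female lay above every male, and the log2 fold change was 0.48 (SE 0.16), or 0.38 without male replicate 2. Parp9, which works as a pair with the ligase Dtx3l, averaged 35.8 ± 2.85 CPM in females, against 30.6 ± 3.38 CPM in males, a log2 fold change of 0.23 (SE 0.10). Exons of Dtx3l overlap 9.40% of its exon length. Parp10, a paralog outside the list, averaged 32.8 ± 1.59 CPM in females, against 28.4 ± 3.17 CPM in males, a log2 fold change of 0.21 (SE 0.09). Xaf1, an antagonist of a cell death inhibitor, Ifi35, Ifi44 and Rtp4 had log2 fold changes between -0.08 and 0.16. Ifi27l2a, with a log2 fold change of -0.61 (SE 0.38), averaged 2.08 ± 1.02 CPM in females, against 3.17 ± 1.35 CPM in males.

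Within each sex the members varied about as much as other genes. The median coefficient of variation over the 36 members was 11.1% in females and 22.7% in males, against 11.1% in females and 21.9% in males over all tested genes. The variation was not shared evenly among mice. Male replicate 1 was the highest of the 10 libraries in 12 of 36 members and the highest male in 19, while male replicate 2 was the lowest of the 10 in 13. Among females, replicate 4 was highest in 11 members and replicate 5 in 10, and replicate 2 was lowest in 16. These counts were not made over all genes, so they may not be particular to the members. The median member deviated on the log2 scale from the mean of the 10 libraries by -0.01, -0.06, 0.05, 0.18 and 0.20 in female replicates 1 to 5, and by 0.21, -0.11, -0.23, -0.08 and -0.11 in male replicates 1 to 5.

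A set of 11 members had female replicates 4 and 5 as the highest females. Of these 9 also had male replicate 1 as the highest male: Zbp1, Oas2, Oasl2, Ifit1, Ifitm1, Gbp2, Gbp3, Ifi27l2a and Rtp4. This group was read off these values and not tested, and the same pattern was not counted over all genes. Rtp4, a receptor-transporter protein, had 5.68, 3.59, 5.21, 9.15 and 7.63 CPM in the females and 9.61, 7.79, 3.59, 3.93 and 4.46 CPM in the males, and the predicted gene Gm45338 overlaps 13.9% of its exon length. Oasl2 had 4.41, 4.42, 5.68, 10.3 and 8.80 CPM in the females and 8.81, 3.69, 4.35, 5.93 and 5.16 CPM in the males. The summed level of 7 monocyte markers, all 7 of them detected, had the same high mice. It was 335, 268, 340, 458 and 481 CPM in female replicates 1 to 5 and 816, 434, 363, 366 and 340 CPM in male replicates 1 to 5. The sum of 8 T and natural killer cell markers had the same high mice. It was 44.9, 34.3, 43.02, 49.6 and 52.4 CPM in the females and 86.3, 75.7, 54.5, 52.6 and 51.4 CPM in the males. Most of that sum was 1 gene, Nkg7, at 38.3, 28.2, 35.6, 40.0 and 44.8 CPM in the females. The other markers did not all share its order: Trbc2 was lowest in female replicate 5 (0.587 CPM) and Lck highest in female replicate 3 (3.85 CPM). The part of RNA from these cells in the members was not tested. Markers of plasmacytoid dendritic cells, the main producers of type I interferon, were all detected (8 genes). Their sum ran between 46.1 and 55.3 CPM in females and between 50.1 and 76.4 CPM in males. Most of it was Tcf4, at 36.9 CPM in female replicate 1 and 60.1 CPM in male replicate 2. Of the 7 tested markers, 6 had negative fold changes, female over male, and 1 had a positive one. The edgeR test called 0 of the 7. Its unadjusted p was below 0.05 for Ly6d (log2 fold change -0.87) and Cox6a2 (-0.57).

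**Figure D4:**
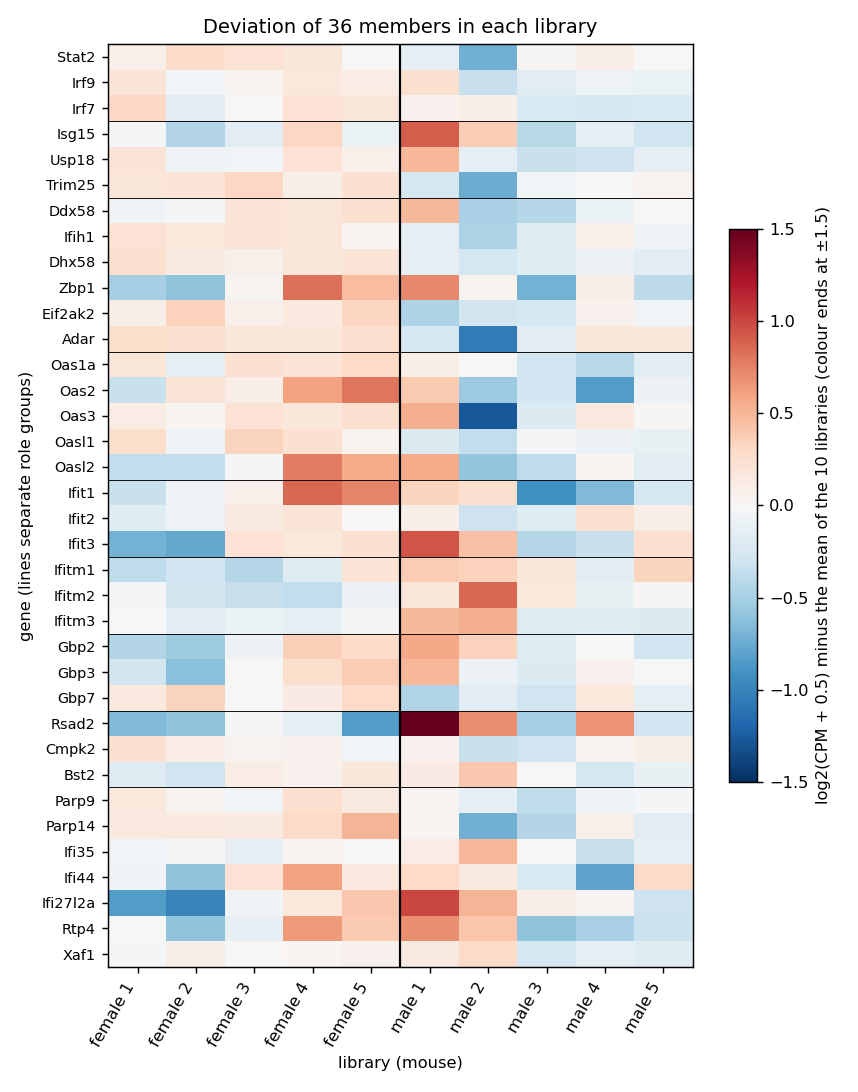
Deviation of each tested member in each library from its mean over the 10 libraries, as log2(CPM + 0.5), females left of the line and males right of it, rows grouped by role. Female replicates 4 and 5 and male replicate 1 are red in Zbp1, Oasl2, Ifit1, Gbp2 and Rtp4, and male replicate 2 is blue in Stat2, Trim25, Adar and Oas3, which have long exons.

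Exon length separated the members as well. Over the 36 members the deviation of male replicate 2 from the other males had a rank correlation with exon length of -0.779, and those of male replicates 4 and 5 had 0.654 and 0.629, each larger in size than over all genes. Male replicate 2 was the lowest male in 11 of the 18 members longer than the median of 3852 bases and in 2 of the 18 shorter ones. The 18 longer members had a median log2 fold change of 0.24, with 17 positive, and the 18 shorter ones -0.07, with 8 positive. Without male replicate 2 the medians were 0.19 and 0.05, with 16 and 10 positive. Without male replicates 1 and 2 together they lay closer, at 0.23 and 0.18, with 16 and 15 positive. With an offset for exon length fitted in each library they were 0.19 and 0.06, with 17 and 10 positive. With that offset 11 of 36 members had an unadjusted p under 0.05 (9.68% of genes did), among them Dhx58 (log2 fold change 0.36), Parp14 (0.36), Eif2ak2 (0.34) and Ifitm2 (-0.30). The fit without male replicate 2 was planned and the length offset was added after the values were seen.

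**Figure D5:**
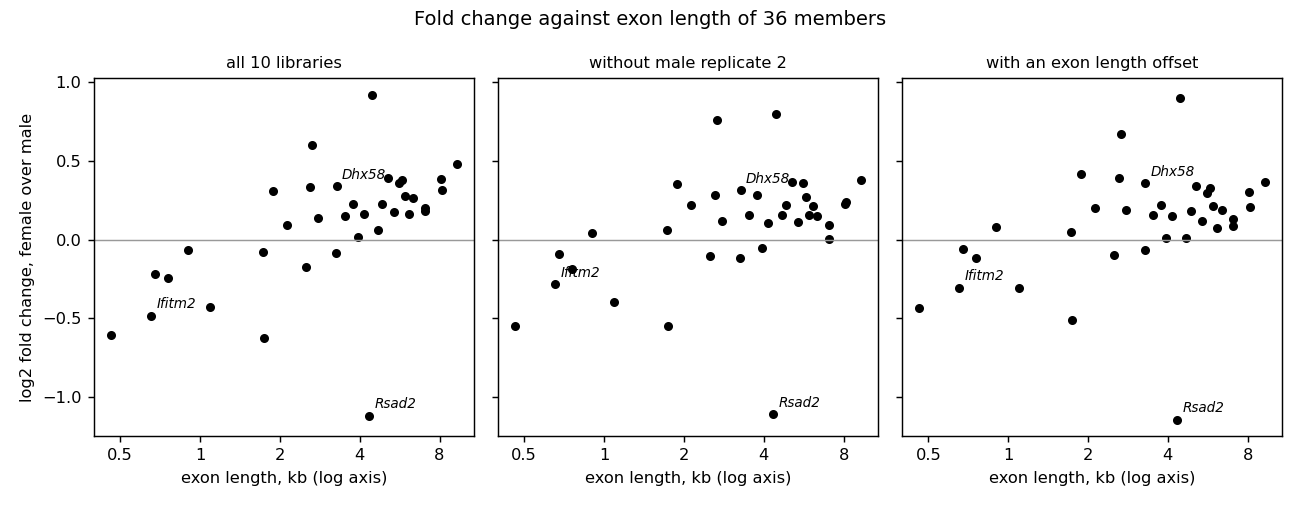
Log2 fold change, female over male, against exon length (kb, log axis) for the 36 tested members with all 10 libraries, without male replicate 2, and with a length offset per library. The shorter members lie lower in all 3 panels, and the gap is narrower in the other panels.

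Fold changes are given beside the ISRE letters as a description. Of the 16 tested members with the letters in their window 8 had positive fold changes (median 0.06), and of the 12 without them 10 did (median 0.17). The first group also had the shorter exons, with a median of 2960.5 bases against 4426. No test was made of this split.

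The wider pathway gave no call. Of 99 further genes listed by function 77 were in the count table and 64 were tested. Of the 64, 0 had an edgeR adjusted p under 0.05 (0.0545% of all genes did), and the median log2 fold change was -0.01. At an unadjusted p under 0.05, 3 were higher in females (3.76% of all genes were) and 4 were lower (5.41%), counts close to those shares. DESeq2 adjusted p-values for the genes named here from these lists ran from 0.142 upwards. Interferon transcripts themselves had few counts. Of 21 interferon genes listed 3 could be followed and the others are not analysed here. These were Ifnb1 with 0 counts in the 5 females together and 2 in the 5 males, Ifng with 1 in females and 3 in males, and Ifnz with 22 in females and 7 in males. A count of 0 in all females allows up to 0.0258 CPM, a limit that covers counting error only.

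The receptor genes had no call. Ifnar1 averaged 34.0 ± 2.01 CPM in females, against 32.1 ± 4.88 CPM in males, and Ifnar2 averaged 54.8 ± 4.91 CPM in females and 57.3 ± 2.75 CPM in the males. Of the interferon gamma receptor chains, Ifngr1 averaged 145 ± 15.5 CPM in females, against 161 ± 13.6 CPM in males, and Ifngr2 averaged 16.4 ± 1.31 CPM in females, against 17.6 ± 4.98 CPM in males. Ifnlr1, the chain particular to interferon lambda, was low, at 0.668 ± 0.129 CPM in females, against 1.62 ± 1.24 CPM in males (log2 fold change -1.28, SE 0.44). Male replicate 1 was highest, at 3.73 CPM, and the fold change was -0.71 without it. Il10rb, the partner chain of Ifnlr1, averaged 16.5 ± 1.29 CPM in females and 17.8 ± 3.26 CPM in the males. Of the kinases, Jak1 averaged 266 ± 8.04 CPM in females, against 227 ± 43.4 CPM in males, and Tyk2 averaged 73.2 ± 7.63 CPM in females and 60.1 ± 14.2 CPM in the males.

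Of 11 tested genes for sensing adaptors and kinases, 1 had an unadjusted p under 0.05 (9.17% of all genes did). This was Mavs, the mitochondrial adaptor of RIG-I and MDA5, at 47.9 ± 4.11 CPM in females, against 39.6 ± 5.22 CPM in males (log2 fold change 0.28, SE 0.11). The X-linked Tlr7, a receptor for single-stranded RNA, was at 0.954 ± 0.547 CPM in females, against 1.82 ± 1.45 CPM in males. Among 6 other interferon regulatory factors, Irf1 averaged 11.3 ± 4.10 CPM in females, against 13.02 ± 3.05 CPM in males, and Irf5 averaged 7.57 ± 2.09 CPM in females and 10.04 ± 4.95 CPM in the males. Of 11 genes that restrain the pathway, 2 had lower female values with an unadjusted p under 0.05 (5.41% of all genes did). They were the phosphatase gene Ptpn6, at 112 ± 8.81 CPM in females, against 135 ± 21.3 CPM in males, and Rnaseh2b, a subunit of the nuclease that clears RNA from DNA, at 73.0 ± 6.29 CPM in females and 94.7 ± 28.5 CPM in the males. The Rnaseh2b log2 fold change was -0.37, and -0.17 without male replicate 2, which was at 145 CPM.

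Of 18 tested genes that respond chiefly to interferon gamma, 11 had positive fold changes (48.0% of all genes did). Their median was 0.17, against -0.01 over all genes. Gbp4, a guanylate-binding protein, had 0.534, 0.537, 0.555, 0.938 and 0.900 CPM in the females and 0.252, 0.415, 0.128, 0.120 and 0.375 CPM in the males. All females lay above all males, at a very low level, with a log2 fold change of 1.44 (SE 0.39, edgeR adjusted p = 0.506). Nlrc5, the activator of MHC class I genes, averaged 16.5 ± 5.54 CPM in females, against 11.4 ± 3.83 CPM in males (log2 fold change 0.53, SE 0.26).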

How the data were processed

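RNA from lineage-depleted marrow of 5 female and 5 male mice was sequenced. Per the submitters' processing notes, STAR, DESeq and featureCounts were used, with mm10 and GRCm38.p6 as builds. The authors deposited raw read counts per gene, and their normalized table was not used. Strand setting, annotation release and tool versions were not given in the sources used here.

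Genes passing filterByExpr (14674) were scaled by TMM and fitted with sex as the only term in edgeR 4.0.16 (robust quasi-likelihood, R 4.3.3). P-values were adjusted by Benjamini-Hochberg over all genes, and the SE is the fold change divided by the root of F. Exon lengths and coordinates come from GENCODE vM21 (GRCm38).

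Members and lists were chosen with earlier results of these data known. Each mouse is a replicate, by the study's design. Values per library were given for the member of smallest p in each role group and the 4 of highest CPM per kb. Of the other lists, the 2 genes of smallest p each, the interferon receptors, Jak1, Tyk2 and Irf1 were named. 1 gene of that rule is not reported here. Other members described per library were chosen after their values were seen. The fit was tested on simulated data, where it recovered 71% of log2 changes of size 1 and 92.9% of those of size 2. Smaller changes were not simulated, so it gives no such rate for most members, whose fold changes were smaller. Alternatives were DESeq2 1.42.0, other filters and size factors, leaving out libraries, a replicate block and a length offset.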

Additional observations from a re-analysis of the deposited data

Results flagged for a closer look

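In 2 members 1 male lay far from the other 4, by the ratio of its gap to the range of the 5 males. Usp18 was at 10.4 CPM in male replicate 1, against 5.59 to 6.57 CPM in the other males (ratio 0.795). Ifitm2 was at 152 CPM in male replicate 2, against 77.2 to 94.0 CPM in the others (ratio 0.774). Chance flags about 1 in 20 such groups, and each of the 36 tested members was examined in both sexes.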

How the results depend on the processing

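The number of members called was 0 in 16 of the 17 alternative fits and 1 with the DESeq2 Wald test, which called Dhx58. Over the fits that left out 1 library, the median log2 fold change ran from 0.10 to 0.28. The labels do not say that replicate numbers pair the mice. Same-numbered females and males had correlations of their deviations between -0.318 and 0.00259, and none correlated best with its own number. These correlations do not settle whether mice were paired. With the replicate block the median log2 fold change was 0.18, and 0 members were called. Of 204 values of the 12 members named by the rule, 199 kept their direction without a call and 4 took the other direction. Bst2 was at 0.10 without male replicates 1 and 2, at 0.079 with the length offset added after the values were seen, and ran from -0.14 to 0.039 when 1 library was left out, being positive without male replicate 2. Ifitm3 was at 0.11 without male replicates 1 and 2. Their causes were not tested. Over all 36 members, 24 kept their sign in every alternative fit. Differences in Oas2, Ifit3 and Zbp1 rest on few counts.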
